A study of Rattus norvegicus with 12 samples.

Results

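Succinyl-CoA ligase is the mitochondrial enzyme of the tricarboxylic acid cycle that its genes Suclg1, Suclg2 and Sucla2 encode. The circular RNAs (circRNAs) of these genes were taken from a table of 21876 circRNA entries as the 18 entries that carry one of the 3 symbols and 3 entries that name the gene by its Ensembl identifier and share its transcript. This gave 21 of 21876 entries, 6 of Suclg1, 13 of Suclg2 and 2 of Sucla2. All 21 are exonic, each is a different junction, and the 3 genes are 3 of 6021 host genes. They held 322 back-splice reads, 38 in Suclg1, 233 in Suclg2 and 51 in Sucla2.

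The RNA was from liver of wild-type Wistar rats, all made diabetic with 4 weeks of a high-fat diet, which gave 60% of calories as fat, and a single injection of streptozotocin at 35 mg/kg after 16 h of fasting. Streptozotocin is toxic to the beta cells of the pancreas. Entry to the study required fasting glucose above 16.7 mmol/L, measured 3 days after the injection. The sham group (n = 5) had a sham operation, the sleeve gastrectomy group (n = 5) had most of the stomach removed and was sampled 3 months later, and the relapse group (n = 2) was diabetic again after that operation. When the sham and relapse livers were taken is not given in the sources used here. Linear RNA had been digested with RNase R, so the values are levels of circles and not of mRNA or enzyme. All rats had been made diabetic before the operations, so no rat without induced diabetes is among the 12 libraries. The labels do not say that each library is a separate animal, so p-values measure the spread between these libraries.

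Succinyl-CoA ligase turns succinyl-CoA into succinate and stores the energy of the bond in GTP or ATP. The enzyme is a dimer. Suclg1 encodes the alpha subunit, which every form of the enzyme shares. Suclg2 encodes the beta subunit that makes the enzyme specific for GDP and GTP, and Sucla2 the beta subunit that makes it specific for ADP and ATP. The GTP form is the prominent one in liver and kidney, and the GTP it makes is used in mitochondria by the phosphoenolpyruvate carboxykinase of that compartment. A circRNA forms when the 5′ splice site (donor) at the end of a downstream exon is joined to the 3′ splice site (acceptor) of an upstream exon, and a read across that back-splice junction identifies the circle.

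The libraries held 18176 to 37229 back-splice reads. Levels are given as reads per 1000000 back-splice reads of the library (RPM). A junction read marks 1 point of a circle, so it was not divided by length. Of 13 hepatocyte marker genes, 12 gave circles. Their summed level was 28524 to 41758 RPM in sham, 25452 to 41302 after sleeve gastrectomy and 21870 to 23315 in relapse, where both libraries lay below the other 10. One gene, Cyp2c7, a cytochrome P450 of hepatocytes, held 58.2% of these marker reads. Without it the sum was 10430 to 18156 RPM in sham, 11399 to 16020 after sleeve gastrectomy and 10448 to 11040 in relapse. The relapse range then overlapped with sham and still lay below sleeve gastrectomy. Markers of cholangiocytes and of the pancreas had 0 reads. Kupffer cell markers reached at most 786 RPM (2 of 7 with reads, with Cd68, Clec4f, Marco, Cd163 and Vsig4 at 0), stellate cell markers 344 RPM (3 of 7) and endothelial markers 917 RPM (4 of 6). Lymphocyte markers reached at most 47.3 RPM (1 of 5).

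**Figure D1:**
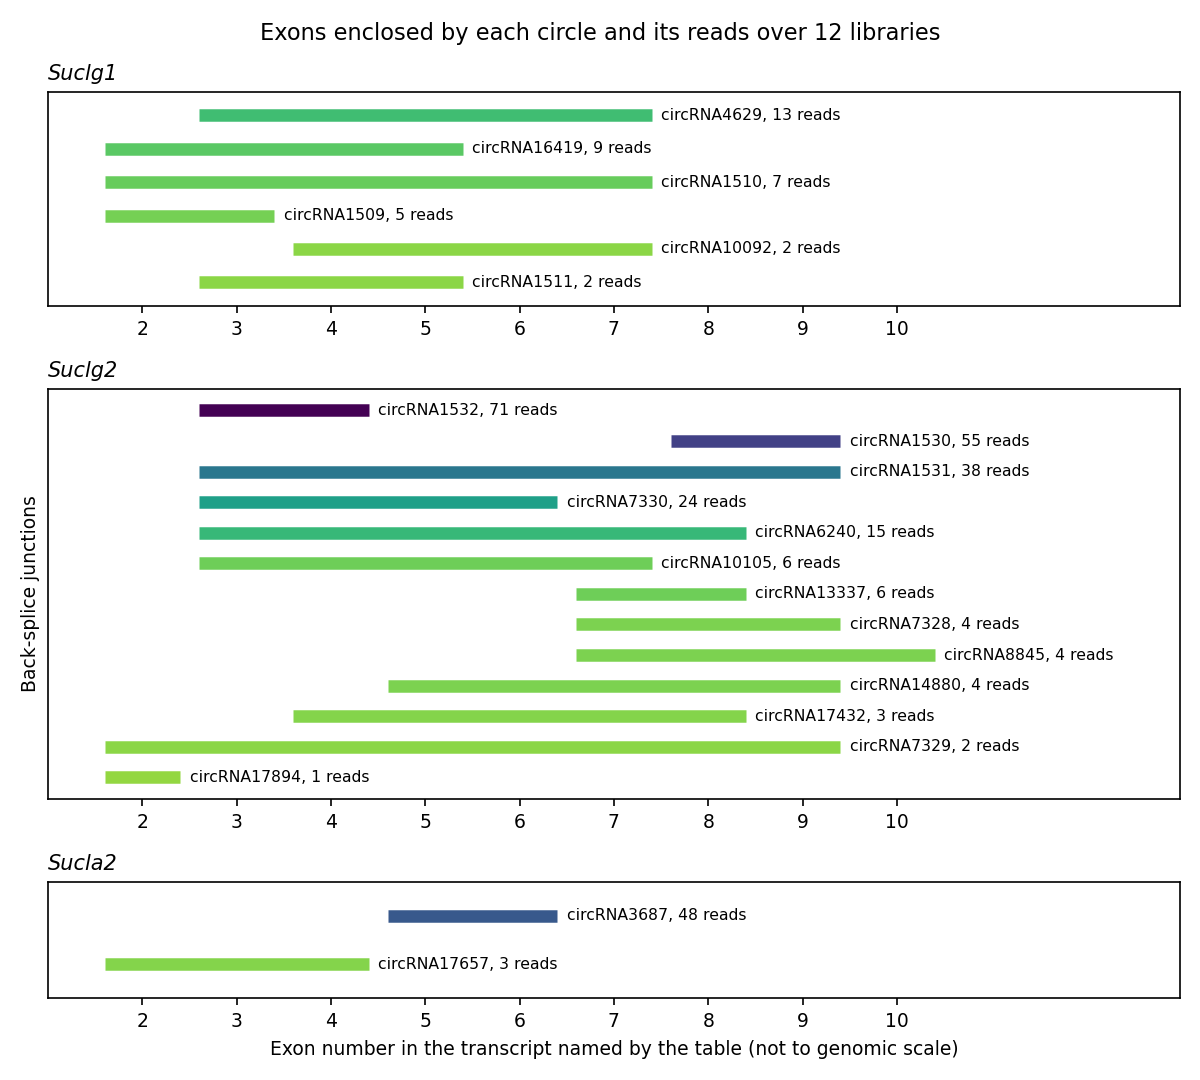
Exons enclosed by each of the 21 circles, by gene. Each bar runs from the acceptor exon to the donor exon on an axis of exon numbers, darker bars have more reads, and the label gives the reads summed over 12 libraries. Suclg2 has 5 circles that begin at exon 3, and Sucla2 has nearly all of its reads in the circle of exons 5 and 6.

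The 3 genes made circles in different ways, shown in the map of enclosed exons. Suclg1 spread 38 reads over 6 circles of 2 to 6 exons and no circle held more than 34.2% of them. Suclg2 spread 233 reads over 13 circles, and its leading circle held 30.5%. Sucla2 had 94.1% of its 51 reads in 1 circle. Of the 6021 hosts, 3.35% had more reads than Suclg2 and 2.97% had as many or more junctions. For Suclg1 these shares were 19.3% and 16.8%, and for Sucla2 15.6% and 61.7%. The median host had 7 reads and 2 junctions. Of the 21 junctions, 19.0% were read in a single library, against 60.2% of all junctions in the table. Coordinates below are those of Rnor_6.0, counted from 1.

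In Suclg1, on the plus strand of chromosome 4, the circles began at exon 2, 3 or 4 and ended at exon 3, 5 or 7. Circles with the acceptor of exon 2 held 55.3% of the reads, those with the acceptor of exon 3 39.5%, and those with the donor of exon 7 57.9%. The leading circle was circRNA4629, exons 3 to 7, at 101193896 to 101204096, with 13 reads. It had 5, 3, 2, 0 and 0 reads in sham 1 to 5, 0, 1, 0, 0 and 1 in sleeve gastrectomy 1 to 5, and 0 and 1 in relapse 1 and 2. It was thus read in 3 of 5 sham libraries, 2 of 5 sleeve gastrectomy libraries and 1 of 2 relapse libraries. CircRNA16419, exons 2 to 5, at 101188940 to 101197907, was one of the 3 entries named by identifier. Its 9 reads were 6, 1 and 2 in sham 2, 3 and 4, with 0 in both other groups. The remaining 4 circles had 2 to 7 reads each.

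In Suclg2, on the minus strand of chromosome 4, the acceptor of exon 3 was the site most used. It took part in 5 circles and 154 of 233 reads (66.1%), joined to the donor of exon 4, 6, 7, 8 or 9. The donor of exon 9 took part in 5 circles and 103 reads (44.2%), with 56 of them after sleeve gastrectomy, 37 in sham and 10 in relapse. The largest circle enclosed exons 2 to 9 over 103629 bp and the smallest was exon 2 alone, 141 bp, with a single read. Of the 13 circles, 2 were read in 1 library and 1 was read in all 12.

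That circle was circRNA1532, exons 3 and 4 of Suclg2, at 127707966 to 127709016, with 71 reads. It had 5, 7, 2, 5 and 3 reads in sham 1 to 5, 2, 11, 3, 4 and 9 in sleeve gastrectomy 1 to 5, and 10 and 10 in relapse 1 and 2. The mean level was 405 ± 193 RPM in relapse (SD, n = 2), 247 ± 183 RPM in the sleeve gastrectomy group (SD, n = 5) and 209 ± 112 RPM in the sham group (SD, n = 5), and the groups overlapped. CircRNA1530, exons 8 and 9, at 127663315 to 127673795, had 55 reads and was the most read Suclg2 circle outside exon 3. Its reads were 7, 3, 5, 0 and 5 in sham, 2, 6, 11, 5 and 6 after sleeve gastrectomy, and 5 and 0 in relapse. It was read in all 5 sleeve gastrectomy libraries and was at 0 in sham 4 and in relapse 2, the library with the most reads of all 12.

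CircRNA1531, exons 3 to 9 of Suclg2, at 127663315 to 127709016, joins the outer splice sites of circRNA1532 and circRNA1530. It had 38 reads: 5, 4, 0, 0 and 2 in sham, 4, 3, 4, 9 and 2 after sleeve gastrectomy, and 2 and 3 in relapse. It was read in 10 of 12 libraries, among them every sleeve gastrectomy and relapse library. CircRNA7330, exons 3 to 6, at 127698983 to 127709016, had 24 reads, which were 0, 2, 5, 2 and 0 in sham, 6, 0, 7, 0 and 2 after sleeve gastrectomy, and 0 and 0 in relapse. It was read in 6 of 12 libraries, and other Suclg2 circles were read in the rest. CircRNA6240, exons 3 to 8, at 127673635 to 127709016, an entry named by identifier, had 15 reads, which were 3, 0, 0, 2 and 5 in sham, 0, 0, 0, 3 and 0 after sleeve gastrectomy, and 0 and 2 in relapse. The other 8 circles of Suclg2 had 1 to 6 reads and none in relapse.

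Sucla2, on the plus strand of chromosome 15, had 48 of its 51 reads in circRNA3687, exons 5 and 6, at 55485729 to 55488198. Its reads were 1, 3, 2, 3 and 0 in sham 1 to 5, 8, 2, 6, 6 and 6 in sleeve gastrectomy 1 to 5, and 0 and 11 in relapse 1 and 2. The 2 relapse libraries thus held the highest count and a count of 0. The remaining circle, circRNA17657 of exons 2 to 4, had 3 reads, all in sham 4.

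**Figure D2:**
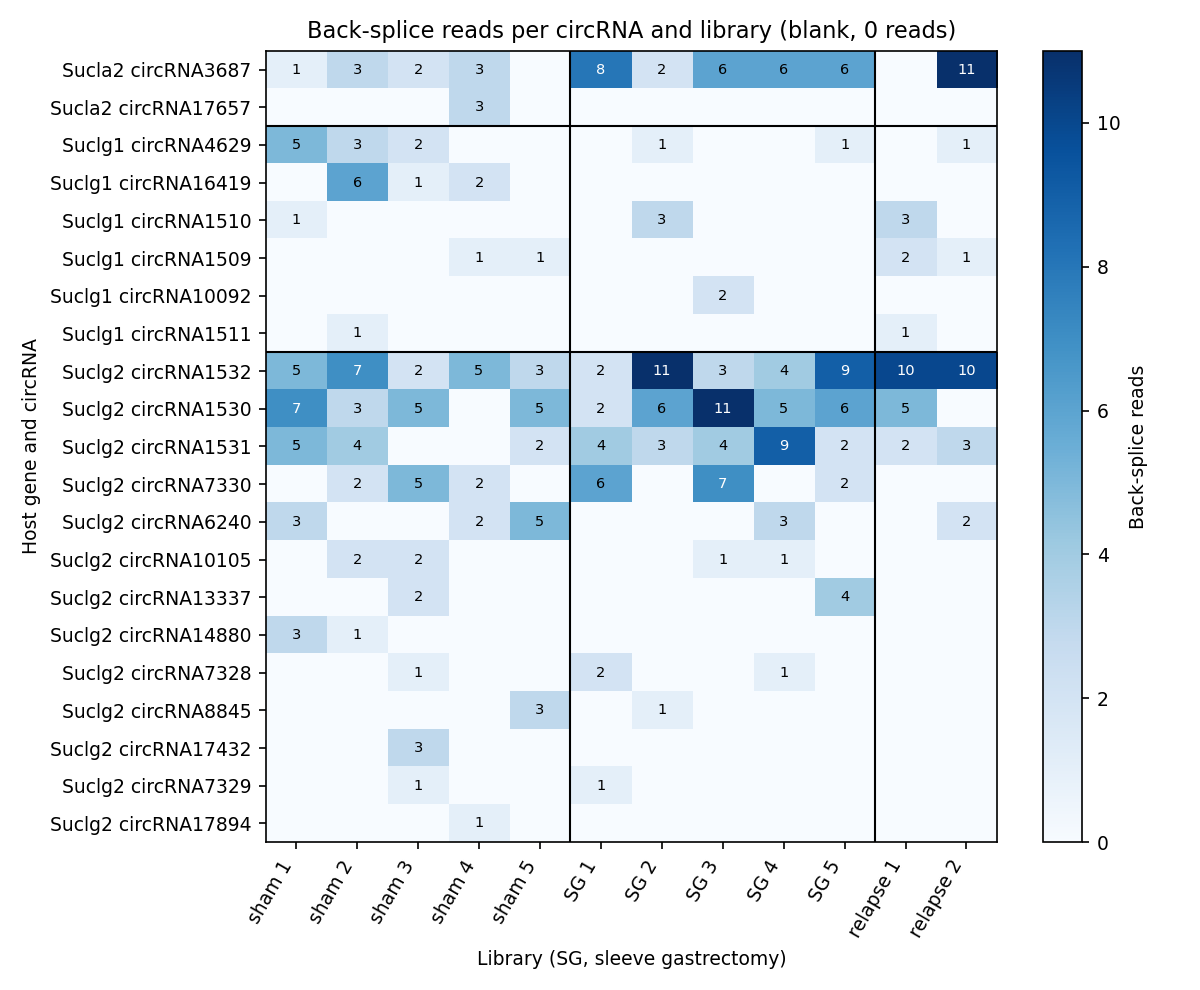
Back-splice reads of each of the 21 circles (rows, grouped by host gene) in each of the 12 libraries (columns, grouped by sham, sleeve gastrectomy and relapse). The colour gives the number of reads, and CircRNA1532 of Suclg2 is the one row with reads in all 12 columns.

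Summed per gene, the alpha subunit Suclg1 had 6, 10, 3, 3 and 1 reads in sham 1 to 5, which are 199, 550.2, 156, 150.4 and 46.5 RPM. It had 0, 4, 2, 0 and 1 reads in sleeve gastrectomy 1 to 5, or 0, 197, 108, 0 and 34.2 RPM. The upper limit behind the counts of 0, taken as 3 reads, was 142 RPM in library 1 and 98.3 RPM in library 4. In relapse 1 and 2 it had 6 and 2 reads, or 325 and 53.7 RPM. Each of the 5 values after sleeve gastrectomy was under the mean of the sham group, and the groups overlapped. The relapse libraries lay on either side of the sham mean.

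Suclg2, the beta subunit of the GTP form, was read in every library. Its levels were 761, 1045, 1093, 501 and 837 RPM in sham 1 to 5, 803, 1032, 1402, 754 and 788 RPM in sleeve gastrectomy 1 to 5, and 920.3 and 403 RPM in relapse 1 and 2. The lowest and the highest of the 12 were relapse 2 and sleeve gastrectomy 3. The 3 groups overlapped.

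Sucla2, the beta subunit of the ATP form, had levels of 33.1, 165, 104, 301 and 0 RPM in sham 1 to 5 and of 378, 98.3, 324, 197 and 205 RPM in sleeve gastrectomy 1 to 5. In relapse 1 and 2 the levels were 0 and 295 RPM. Of the sleeve gastrectomy libraries, 4 of 5 lay above the sham mean, and sham 4 lay above 3 of them. The upper limit behind a count of 0 was 139 RPM in sham 5 and 162 RPM in relapse 1.

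Over the 12 libraries the order of the levels was Suclg2 with 862 ± 267 RPM, Sucla2 with 175 ± 131 and Suclg1 with 152 ± 158 (SD, n = 12). Suclg2 was the highest of the 3 genes in each library, and the levels of Sucla2 and Suclg1 differed by less than their spread. Within Suclg1 the order of the groups was sham, relapse and sleeve gastrectomy, with 220.4 ± 193, 189 ± 192 and 67.7 ± 84.4 RPM. Within Suclg2 it was sleeve gastrectomy, sham and relapse, with 956 ± 273, 848 ± 238 and 662 ± 366 RPM. Within Sucla2 it was sleeve gastrectomy, relapse and sham, with 240.4 ± 111, 148 ± 209 and 120.6 ± 119 RPM (SD, n = 5 for sham and sleeve gastrectomy, 2 for relapse). In each order, neighbours differed by less than the larger of their SDs. The levels are averages over all cells of the tissue, so that fewer cells of a type and fewer circles per cell cannot be told apart.

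**Figure D3:**
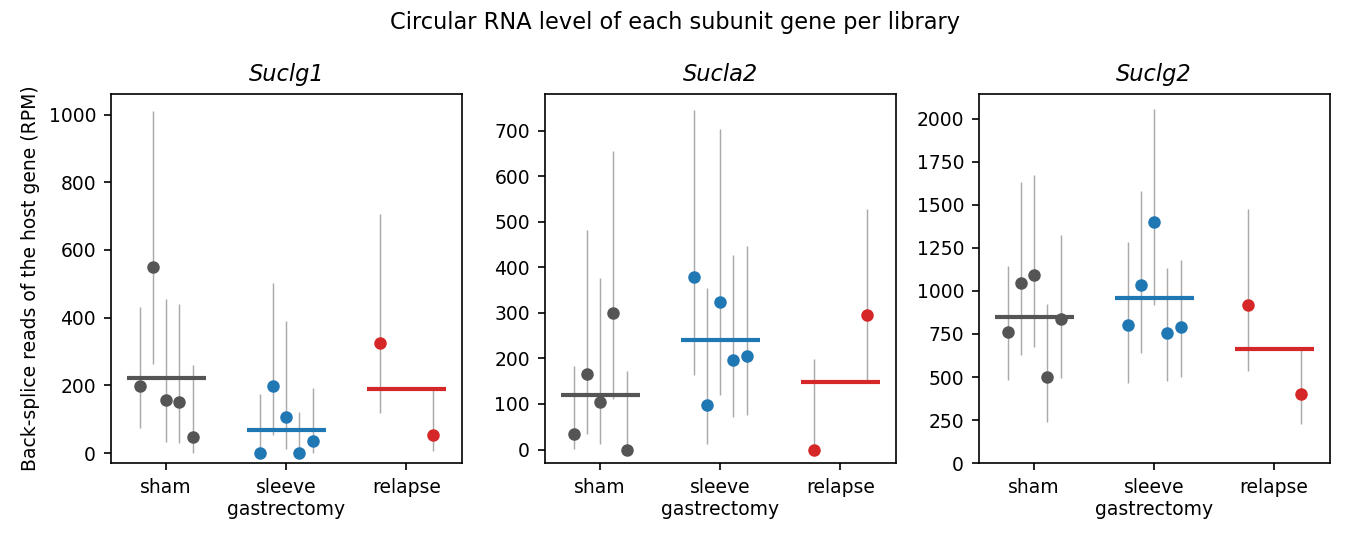
Back-splice reads of each gene in RPM (y axis, a separate linear scale per gene) in the sham, sleeve gastrectomy and relapse libraries. Points are libraries with exact 95% binomial intervals, which cover counting error only, and thick lines are group means. In each gene the groups overlap.

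Sleeve gastrectomy against sham asks how the operation goes with the circles of this enzyme in liver of rats made diabetic. Suclg1 and Sucla2 had opposite signs and Suclg2 was near 0, and none of the 3 passed the test. Counts summed per host were compared in edgeR (quasi-likelihood F-test, Benjamini-Hochberg adjustment over 1337 tested hosts, threshold 0.05), and all 3 genes entered the test. Suclg1 had a log2 fold change of -1.73 (SE 1.09, edgeR adjusted p = 0.997), a 0.302-fold level with a 95% interval from 0.0688 to 1.32. Sucla2 had 0.99 (SE 0.93, edgeR adjusted p = 0.997), a 1.99-fold level with an interval from 0.566 to 6.99. Suclg2 had 0.15 (SE 0.35, edgeR adjusted p = 0.997), a 1.11-fold level with an interval from 0.690 to 1.78.

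Of the 3 genes, 0 passed in edgeR, DESeq2 or limma-voom and 0 had an unadjusted p under 0.05 in edgeR. Of all 1337 hosts, 0.15% passed in edgeR and 3.74% had an unadjusted p under 0.05. The CPM (counts scaled as for RPM, to the TMM-normalised total of tested hosts) overlapped between the groups in each of the 3 genes, and 0.748% of all hosts had groups that did not overlap. The exact two-sided permutation p over libraries, on RPM, was 0.0794 for Suclg1, 0.135 for Sucla2 and 0.603 for Suclg2, in a design whose smallest possible p is 0.00794. The median log2 fold change of the 3 genes was 0.15 and that of all hosts 3.48e-05. Without sleeve gastrectomy 3 the value of Suclg2 was -0.01, and with each library left out in turn that of Sucla2 ranged from 0.68 to 1.68. That of Suclg1 ranged from -2.57 to -1.38 over 11 of the 12 libraries. Without sham 2, which held 10 of its 23 sham reads, Suclg1 did not enter the test. Its sham mean was then 138 ± 64.6 RPM (SD, n = 4), and the ratio of sleeve gastrectomy to sham means was 0.491.

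At the level of junctions, 4 of the 21 circles had enough reads for the test, circRNA1532, circRNA1530 and circRNA7330 of Suclg2 and circRNA3687 of Sucla2. Between sleeve gastrectomy and sham 0 of the 4 passed in edgeR, DESeq2 or limma-voom, where 0% of all 1519 junctions passed in edgeR. None of the 4 had an unadjusted edgeR p under 0.05, against 3.88% of all junctions, and the groups overlapped in each of the 4, against 0.856% of junctions with groups that did not. The largest log2 fold change of the 4 was that of circRNA3687, 1.42 (SE 0.99, edgeR adjusted p = 0.996), from 9 reads in sham and 28 after sleeve gastrectomy. CircRNA1530 had 0.54 (SE 0.84), with 20 and 30 reads. Among circles outside the test, circRNA16419 of Suclg1 had 9 reads in sham and 0 after sleeve gastrectomy. Its pooled sham level was 3.30 times the floor of 3 reads over the sleeve gastrectomy group, a bound that covers counting error only. This bound rested on sham 2, which held 6 of the 9 reads. Without it, in an alternative chosen after the values were seen, 3 sham reads remained, or 33.0 RPM, which was 1.32 times the floor and too few reads for a bound.

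The comparison of relapse with sleeve gastrectomy concerns the return of diabetes after the same operation. Suclg2 and Sucla2 were lower and Suclg1 higher in relapse, and none passed. The log2 fold changes were -0.62 for Suclg2 (SE 0.48), -0.54 for Sucla2 (SE 1.18) and 1.37 for Suclg1 (SE 1.36), each with an edgeR adjusted p of 1. The folds were 0.652 (95% interval 0.340 to 1.25), 0.689 (0.139 to 3.40) and 2.58 (0.408 to 16.3). Of the 3 genes, 0 passed in edgeR, DESeq2 or limma-voom, while 0.0748% of all hosts passed in edgeR. At an unadjusted edgeR p under 0.05 there were 0 of the 3 and 4.34% of all hosts. The groups of each gene overlapped, as they did in all but 9.8% of the hosts. The exact permutation p was 0.381, 0.476 and 0.286, where 2 against 5 libraries cannot go below 0.0952. The signs of Sucla2 and Suclg1 rested on relapse 1: without it they were 0.38 and -0.15.

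Relapse against sham gave -0.47 for Suclg2 (SE 0.48, edgeR adjusted p = 0.979), 0.45 for Sucla2 (SE 1.17, edgeR adjusted p = 0.990) and -0.36 for Suclg1 (SE 1.35, edgeR adjusted p = 0.996). The folds were 0.723 (95% interval 0.376 to 1.39), 1.37 (0.281 to 6.68) and 0.779 (0.125 to 4.86). Again 0 of 3 passed in edgeR, DESeq2 or limma-voom, against 0.15% of all hosts in edgeR. At an unadjusted edgeR p under 0.05 there were 0 of 3 and 5.91% of all hosts. The groups overlapped in each gene, where 10.5% of hosts had groups that did not. Without relapse 2 the values were 0.02, -4.46 and 0.46. For Sucla2 this left relapse 1 with 0 reads. The floor of that library, 162 RPM, was above the sham mean of 120.6 RPM, so -4.46 is not a measured fold change. The comparisons with relapse share that pair of libraries, and those with sham or with sleeve gastrectomy share these groups, so the values of a gene in the 3 comparisons are not independent. Both relapse libraries also had the lowest summed hepatocyte markers. Without Cyp2c7 the sum in relapse overlapped with sham and still lay below that after sleeve gastrectomy. The part of these marker levels in the lower Suclg2 level was not tested.

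**Figure D4:**
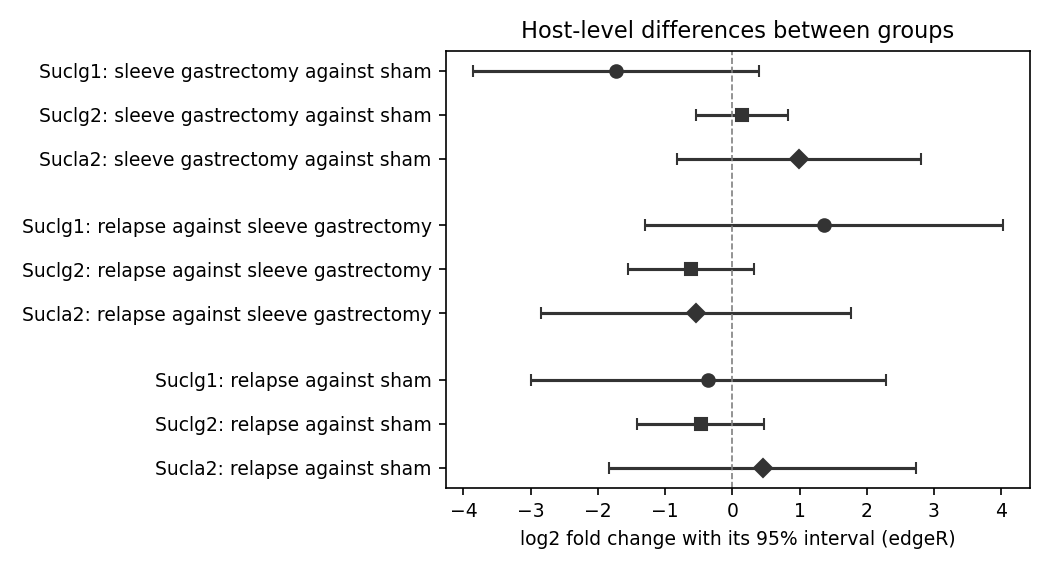
Log2 fold change of each gene in the 3 comparisons, from edgeR on counts summed per host (x axis). Symbols mark the estimate and bars its 95% interval. Each of the 9 intervals includes 0, and those of Suclg2 are the narrowest in each comparison.

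Single circles of the 2 beta subunits did not pass in either comparison with relapse in edgeR, DESeq2 or limma-voom (0 of 4 tested, against 0% of all junctions in edgeR in both). At an unadjusted edgeR p under 0.05 there were 0 of 4 in each, against 4.81% of all junctions for relapse and sleeve gastrectomy and 5.79% for relapse and sham. The groups overlapped in each of the 4 circles, where 8.82% and 11.3% of junctions had groups that did not. CircRNA1532 had a log2 fold change of 0.66 against sleeve gastrectomy (SE 0.86, edgeR adjusted p = 1) and of 0.92 against sham (SE 0.87, edgeR adjusted p = 0.954). CircRNA7330 had 0 reads in relapse against 15 after sleeve gastrectomy and 9 in sham, at least 2.33-fold and 1.53-fold lower with 3 reads over the relapse group as the floor. Without relapse 2 no such bound can be given, because the floor of relapse 1 is 162 RPM and the other groups had 125 and 82.5 RPM.

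The share of circRNA1532 among the Suclg2 reads was examined because its values in relapse had been seen, so it is described here without a test. CircRNA1532 held 58.8% and 66.7% of the Suclg2 reads in relapse 1 and 2, from 10 of 17 and 10 of 15 reads. In sham 1 to 5 it held 21.7%, 36.8%, 9.52%, 50.0% and 16.7%, and in sleeve gastrectomy 1 to 5 it held 11.8%, 52.4%, 11.5%, 17.4% and 39.1%. Both relapse libraries lay above the other 10, and their exact 95% binomial intervals, 32.9% to 81.6% and 38.4% to 88.2%, reached down into that range. The mean share was 62.7 ± 5.55% in relapse (SD, n = 2), 26.4 ± 18.4% in the sleeve gastrectomy group (SD, n = 5) and 27.0 ± 16.3% in the sham group (SD, n = 5). With entries named by symbol alone, an alternative chosen after the values were seen, the relapse and sham groups overlapped. Sham 4 then had 62.5%, from 5 of 8 reads, relapse 1 had 58.8%, and the highest after sleeve gastrectomy was 52.4%.

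Of the 153 hosts with several junctions and at least 10 reads in each library, 7.19% had a share of the leading junction that did not overlap between relapse and sleeve gastrectomy, and 8.5% between relapse and sham. The Suclg2 share is one of these. The number of different Suclg2 circles read was 3 and 3 in relapse, 5, 6, 8, 4 and 5 in sham and 6, 4, 5, 6 and 5 after sleeve gastrectomy. This number did not overlap between relapse and either group in 1.31% of the 153 hosts, which is 2 hosts in each comparison, Suclg2 among them. It was examined along with the share and is described without a test. It is not independent of the share, because reads in circRNA1532 leave fewer reads for other circles. Among the 4 circles of sham 4 were circRNA17894, with 1 read, and circRNA6240, an entry named by identifier, with 2 reads. With entries named by symbol alone, sham 4 had no more circles than relapse 1, so the relapse and sham groups overlapped. Suclg2 had 17 and 15 reads in relapse and 10 to 26 in the other libraries, so the number of reads overlapped between the groups.

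**Figure D5:**
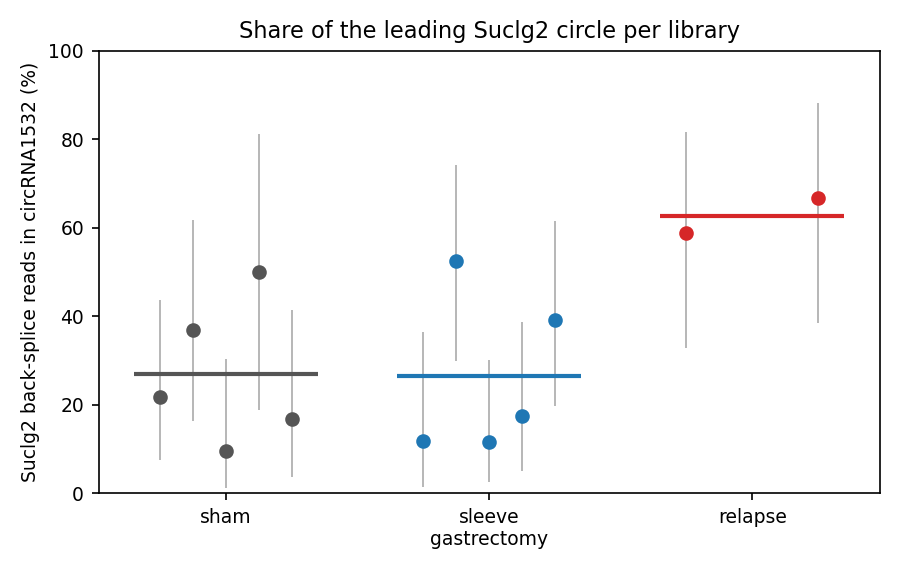
Share of all Suclg2 back-splice reads that lie in circRNA1532 (y axis, percent) in each library, by group. Points are libraries with exact 95% binomial intervals for counting error and thick lines are group means. The relapse libraries, at 58.8% and 66.7%, lie above the 10 others, of which the highest is 52.4%.

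Other genes listed for the tricarboxylic acid cycle held few back-splice reads, and so did the median host, with 7. The list held 20 gene symbols, among them citrate synthase (Cs), the aconitases and the subunits of isocitrate dehydrogenase, with Fh and Fh1 for the same gene. Of the 20, 12 had reads, with 89 reads in all, and none entered the test. The list also holds enzymes outside the cycle, and the highest was Aco1, the cytosolic aconitase, with 20 reads. Suclg2 alone had 233 reads, more than these 12 genes together. A list of 26 gene symbols around succinyl-CoA has Mut and Mmut for the same gene. It also holds genes of branched-chain amino acid and lysine breakdown that neither make nor use succinyl-CoA, such as Mccc2 of leucine breakdown and Dhtkd1. Of these 26, 14 had reads, 1725 in all, of which Hibadh, a dehydrogenase of valine breakdown, had 804 and Pcca, a subunit of propionyl-CoA carboxylase, had 441. Of 17 genes of pyruvate entry 10 had reads, 352 in all, and of 16 genes listed for mitochondrial nucleotide supply 8 had reads. Of their 319 reads, 241 were of Pck1, whose enzyme is cytosolic. Pck2, the gene of the mitochondrial carboxykinase, had 0 reads.

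Of the 12 tested genes of these lists, 8 are from the list around succinyl-CoA, 2 from that of pyruvate entry and 2, Abat and Pck1, from that of nucleotide supply. In each of the 3 comparisons 0 of 12 passed in either direction in edgeR. Dhtkd1, which makes glutaryl-CoA in lysine breakdown, had the smallest p of the 12 in both relapse comparisons. Its level was 150.3 ± 64.0 CPM in relapse (SD, n = 2), 747 ± 388 CPM in the sleeve gastrectomy group (SD, n = 5) and 671 ± 355 CPM in the sham group (SD, n = 5). Its log2 fold change in relapse was -2.34 against sleeve gastrectomy (SE 0.78, edgeR adjusted p = 0.627) and -2.20 against sham (SE 0.78, edgeR adjusted p = 0.501). Its groups overlapped in both. Pcca had 2165 ± 705 CPM after sleeve gastrectomy, 1991 ± 616 in sham and 1690.3 ± 86.0 in relapse. Its groups overlapped, with log2 fold changes in relapse of -0.35 (SE 0.38) against sleeve gastrectomy and -0.24 (SE 0.38) against sham. Between sleeve gastrectomy and sham the smallest p was that of Abat, a mitochondrial transaminase, with 196 ± 179 CPM against 21.9 ± 30.7 (log2 fold change 2.78, SE 1.44, edgeR adjusted p = 0.997). Pck1, the cytosolic carboxykinase of gluconeogenesis, had -0.60 (SE 0.34, edgeR adjusted p = 0.997) in that comparison, and Hibch and Hibadh, enzymes of valine breakdown, had -0.39 (SE 0.47) and -0.16 (SE 0.25). Of the pyruvate entry genes, Pdpr, a regulator of pyruvate dehydrogenase phosphatase, had -0.77 (SE 0.48) in relapse against sleeve gastrectomy. Against sham it had -0.92 (SE 0.49, edgeR adjusted p = 0.806). Pdhb, a subunit of pyruvate dehydrogenase, had 0.05 and 0.14. The CPM of Pdpr did not overlap between relapse (521 to 700) and sleeve gastrectomy (906 to 1226) or sham (767 to 1431). Those of Pck1 and Abat did not overlap between relapse and sham. Of all hosts, 9.8% had groups that did not overlap between relapse and sleeve gastrectomy, and 10.5% between relapse and sham.

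The median log2 fold change of the 12 genes was 0.02 between sleeve gastrectomy and sham, -0.06 between relapse and sleeve gastrectomy and -0.25 between relapse and sham, and that of all hosts was 3.48e-05, -0.05 and -0.08. The median of the 3 ligase genes was 0.15, -0.54 and -0.36.

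Across the 12 libraries Suclg1 and Suclg2 had a Pearson's r of 0.30 and a Spearman's rho of 0.51, on log2 CPM and as a description of these libraries. For Suclg1 and Sucla2 these were -0.39 and -0.54, and for Suclg2 and Sucla2 -0.23 and -0.36. The hosts most like Suclg1 among 1336 others were Mef2d (r = 0.73), Wdr7 (r = 0.72) and Zcchc4 (r = 0.71). Those most like Suclg2 were Zfp148 (r = 0.84), ENSRNOG00000053306 (r = 0.77) and Ube2g1 (r = 0.77), and those most like Sucla2 were Dcbld1 (r = 0.81), Parg (r = 0.78) and Pacsin2 (r = 0.78). These are the highest of 1336 values over 12 libraries that share depth and a scaling factor, in counts that are often 0 to 10 reads.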

How the data were processed

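CircRNAs were measured in 12 liver libraries (5 sham, 5 sleeve gastrectomy, 2 relapse). The authors deposited 1 table with whole-number counts of back-splice reads per entry and library and an SRPBM signal, which within a library is the count times a constant and was not used further. The submitters' processing notes name cutadapt 1.9, FastQC, TopHat2 2.0.10 and the build Rnor_6.0. The caller of back-splice reads is not given in the sources used here. Totals were 18176 to 37229 reads, and intervals and floors (3 reads) cover counting error only. The 21 replicate pairs within groups differed by more than sampling noise (chi-square per degree of freedom 2.68 to 4.26).

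Starts of symbol entries are counted from 0 in the table and 1 was added. Starts of identifier entries were read against the neighbouring intron. Exon numbers are the table's. Identifier entries were joined to symbols through a shared gene record, transcript or junction (1449 of 1696 identifiers), and intergenic entries were left out of hosts. Counts were summed per host (6021) and per junction (21068). edgeR 4.0.16 in R 4.3.3 was run across all hosts or junctions: TMM, filterByExpr (minimum count 5, minimum total 15) (1337 hosts, 1519 junctions), a mean for each of the 3 groups, a robust quasi-likelihood F-test, and FDR 0.05. The code was tested on simulated data. Intervals of folds are normal 95% intervals from the SE. Alternatives were DESeq2 1.42.0, limma-voom (limma 3.58.1), other scaling, filters, entries and samples, and each library left out. Libraries were not paired by replicate number in the main fit.

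The members, the gene lists and the tests were chosen with earlier results of these data known. Circles with 10 or more reads are given by library, the named pathway genes come from the 2 of each list with the smallest p in a comparison, and the 3 most alike hosts of each gene are named. Junction sequences were not used here.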

Additional observations from a re-analysis of the deposited data

Results flagged for a closer look

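Among the 3 genes and their circles with 10 or more reads, 1 value stood apart from its group. CircRNA6240 of Suclg2 had 98.3 RPM, from 3 reads, in sleeve gastrectomy 4 and 0 reads in the other 4 libraries of that group, so that the gap to its nearest neighbour was the whole range of the group. Of 20 groups examined in this way, 1 was found. For normal values chance gives about 1 in 20, a rate that need not hold for counts that are often 0. A group with reads in 1 library alone is always flagged. Circles with fewer reads were not examined in this way, and several of them also had their reads in a single library of a group, such as circRNA13337 with 4 reads in sleeve gastrectomy 5.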

How the results depend on the processing

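In each of the 3 comparisons and under each alternative that could be run, 0 of the tested ligase genes and 0 of the tested ligase junctions passed. With a minimum count of 10 only Suclg2 entered the host test. With only the 2 groups compared, 1 of the 3 genes entered for sleeve gastrectomy against sham and 2 for relapse against sleeve gastrectomy. Suclg1 did not enter in either of these, nor with entries named by symbol alone or names as written. Of 189 alternative values of the 3 genes, 183 kept their sign and 6 reversed, each without 1 library: Suclg2 between sleeve gastrectomy and sham ranged from -0.011 to 0.24. In relapse against sleeve gastrectomy Sucla2 ranged from -5.45 to 0.38 and Suclg1 from -0.15 to 2.25. In relapse against sham Sucla2 ranged from -4.46 to 1.39, Suclg1 from -1.86 to 0.46 and Suclg2 from -0.98 to 0.020. Without sham 2 Suclg1 did not enter the test, so its ranges cover 11 libraries. Where 1 relapse library is left, its spread is taken from the other groups. Sucla2 had 0 reads in relapse 1, so -5.45 and -4.46, from that library alone, are not measured fold changes.

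Of 249 values of the 4 junctions, 5 reversed without 1 library. Between sleeve gastrectomy and sham circRNA1532 ranged from -0.18 to 0.57 and circRNA7330 from -0.053 to 1.41. CircRNA3687 ranged from -5.48 to 0.37 in relapse against sleeve gastrectomy and from -4.05 to 1.82 in relapse against sham, where circRNA1530 ranged from -5.13 to 0.39. CircRNA3687 had 0 reads in relapse 1 and circRNA1530 had 0 in relapse 2. With that library as the only one of relapse, the value is not a measured fold change. The cause of the reversals between sleeve gastrectomy and sham was not tested.

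Same-numbered libraries did not deviate together (r from -0.10 to 0.02 over 5 pairs of sleeve gastrectomy and sham), which does not exclude pairing. With the replicate number as a block, Suclg1, Suclg2 and Sucla2 had -1.73, 0.17 and 1.47 between sleeve gastrectomy and sham, and no ligase gene passed. Over all hosts the count past the threshold was 2, 1 and 2 in the 3 comparisons. It ranged from 0 to 2, 0 to 2 and 1 to 3 over the other alternatives, and from 0 to 2, 0 to 1 and 0 to 5 without 1 library. Over all junctions it was 0 in each, and up to 1, 2 and 1, and without 1 library up to 2, 9 and 8. With 38 and 51 reads in 12 libraries, Suclg1 and Sucla2 limit what can be detected.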
